A study of Mus musculus with 24 samples.

Results

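Lymphatic vessel genes were read in the lungs of male C57BL/6 mice through 6 genes, Ccl21a, Prox1, Lyve1, Flt4, Mmrn1 and Reln, found by gene symbol among 78275 rows of a read count table. All 6 were present, and all 6 passed the filter on low counts that left 17490 genes for testing. They were chosen by name with earlier results of these libraries known, so their levels and differences are given as a description. Whether the fit across all genes called them is stated, and nothing is supported with it. The table holds 24 poly(A)-selected, strand-specific libraries in 8 groups of 3, from mice that were 20 weeks old per the labels.

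DE mice breathed diesel exhaust for 30 min a day on 5 days a week over about 8 weeks, a model of lung fibrosis. DE+PFD mice had the same exposure and were dosed orally with the antifibrotic drug pirfenidone in 0.5% carboxymethylcellulose, at 300 mg/kg daily on 6 days a week. RIC+DE mice received remote ischemic conditioning ahead of the exposure. DE+RIC mice received it while the exposure ran. Conditioning consisted of 3 cycles of 5 min of blocked flow and 5 min of restored flow in the left leg, on 3 days a week for 4 weeks. The drug was added to the RIC+DE schedule in RIC+DE+PFD mice and to the DE+RIC schedule in DE+PFD+RIC mice. RIC mice were healthy and conditioned, and C mice were healthy and untreated. No label names a group that received only the vehicle, so a difference between groups with and without pirfenidone covers drug and vehicle together. The labels do not say how libraries relate to single mice, so errors measure the spread between libraries only.

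Lymphatic capillaries take up tissue fluid and immune cells and carry them to lymph nodes. In the lung they run beside airways, veins and the pleura. PROX1 sets and keeps lymphatic endothelial identity, and VEGFR3, the product of Flt4, is the receptor through which VEGF-C and VEGF-D drive lymphatic growth. CCL21 draws dendritic cells and T cells that carry CCR7 into lymphatic vessels and lymph nodes. LYVE1 binds hyaluronan on lymphatic capillaries, and is also made by some macrophages and by some blood vessel endothelium of the lung. Multimerin 1 is a secreted protein of lymphatic endothelium and platelets, and reelin is a secreted glycoprotein that lymphatic endothelium also makes.

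Mouse Ccl21a has near-identical gene copies. Its coding sequence of 402 bases differed from each of the copies Ccl21b, Gm10591, Gm13304 and Gm21541 by the same 2 substitutions, T84A and C194T, counted from 1 at the first coding base, with the base of Ccl21a first. Of the 870 transcript bases of Ccl21a, only the coding bases were compared. How many reads can tell the genes apart was not tested. The stretch around the second substitution covers coding bases 164 to 223 of transcripts in the GENCODE M21 set, on chromosome 4. Capitals mark base 194.

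Ccl21a: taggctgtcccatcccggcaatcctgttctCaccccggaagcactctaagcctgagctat

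Ccl21b: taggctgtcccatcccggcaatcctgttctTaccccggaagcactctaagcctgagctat

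Gm10591, Gm13304 and Gm21541 carry the same letters as Ccl21b in this stretch. The count table put 24387 reads on Ccl21a over the 24 libraries and 0 on each of the 4 copies. The sources used here do not say how reads with several matches were handled, so "Ccl21a" below means the reads assigned to that row, and its counts are uncertain to the extent that the copies share its sequence.

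The libraries differ in ways that bear on these genes. Total counts ran from 3906807 to 18494156. The labels carry 3 batch dates, with 9 libraries in March, 14 in October and 1 in November, and what was done on those dates is not stated. March holds all 3 RIC+DE libraries and October all 3 DE libraries, so their fitted difference rests on the batch term, which comes from the groups that span both dates. DE+RIC 3 is the November library, and the batch term describes it alone, so fitted values of DE+RIC rest on DE+RIC 1 and DE+RIC 2. RIC+DE+PFD 1 stood apart at 120.9 on the first principal component (28.5% of the variance), and DE 1 was highest on the second (63.8; 11.1%). All 7 lung marker genes (among them Sftpc, Scgb1a1 and Ager) were present in every library, summing to between 32480 and 160900 CPM (counts scaled to each library total). Libraries also differed in how their levels related to gene length. For each library, Spearman's rho was taken between its deviation from each gene's median log2 CPM over 24 libraries and merged exon length. Over 14359 protein-coding genes it ran from -0.34 to -0.25 in DE, from 0.42 to 0.50 in RIC+DE, and stood at -0.62 in RIC+DE+PFD 1.

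Per kilobase of exon, Ccl21a and Lyve1 were the most abundant members and Reln and Prox1 the least. The medians over 24 libraries were 96.6 CPM per kilobase for Ccl21a, 81.0 for Lyve1, 5.25 for Flt4, 3.32 for Mmrn1, 0.43 for Reln and 0.29 for Prox1. The libraries of Ccl21a (53.9 to 393.0 CPM per kilobase) and Lyve1 (28.8 to 173.8) overlapped, as did those of Flt4 and Mmrn1 and those of Reln and Prox1. Merged exon length was 0.87 kilobases for Ccl21a, 2.92 for Lyve1, 5.87 for Mmrn1, 8.23 for Flt4, 8.39 for Prox1 and 23.7 for Reln.

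Ccl21a, the chemokine that brings CCR7-bearing cells to lymphatic vessels, was highest in DE lungs and lowest in RIC+DE lungs. It stood at 341.9, 127.2 and 198.9 CPM in DE lungs, against 77.7, 101.5 and 83.3 CPM in C lungs. No DE library overlapped a C library. The fitted difference, DE minus C, was 1.45 ± 0.34 (log2, SE; n = 3 each). Every DE library lay above every C library for 4.91% of the 17490 genes. In bulk tissue, more cells of a type and more RNA per cell cannot be told apart.

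The DE libraries differed among themselves more than any other group did. Their mean was 222.7 ± 109.3 CPM (SD, n = 3). Outside DE, 20 of 21 libraries lay below DE 2, and the exception was RIC+DE+PFD 1 at 131.6 CPM. Without DE 1 the difference from C was 1.03, and without both DE 1 and RIC+DE+PFD 1 it was 0.92. With the October libraries alone it was 1.34.

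In each treated group Ccl21a was lower than in DE lungs on average. DE+PFD lungs had 84.7, 79.1 and 111.7 CPM. RIC+DE lungs had 46.9, 60.4 and 60.7 CPM, and DE+RIC lungs had 87.6, 100.2 and 93.0 CPM. These 3 groups lay wholly below the DE libraries. RIC+DE+PFD lungs had 131.6, 75.9 and 73.6 CPM, the first of them above DE 2. DE+PFD+RIC lungs had 63.3, 73.6 and 62.4 CPM, all below DE. The comparisons share the 3 DE libraries, whose high values enter each of them.

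Fitted with the batch dates, Ccl21a was at -1.26 ± 0.34 for DE+PFD minus DE (log2, SE), at -2.32 ± 0.40 for RIC+DE minus DE and at -1.23 ± 0.38 for DE+RIC minus DE. It was at -0.98 ± 0.35 for RIC+DE+PFD minus DE and at -1.91 ± 0.37 for DE+PFD+RIC minus DE. RIC+DE minus DE was the lowest of the 5. Without DE 1 the RIC+DE+PFD difference was -0.56, and without RIC+DE+PFD 1 it was -1.52. Without both DE 1 and RIC+DE+PFD 1 the differences from DE were -0.72 for DE+PFD, -1.53 for RIC+DE, -0.81 for DE+RIC, -1.09 for RIC+DE+PFD and -1.24 for DE+PFD+RIC. With the October libraries alone the 4 that could be fitted were -1.17 (DE+PFD), -1.24 (DE+RIC), -1.52 (RIC+DE+PFD) and -1.95 (DE+PFD+RIC).

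RIC lungs had 72.6, 96.9 and 97.1 CPM of Ccl21a, against 77.7, 101.5 and 83.3 CPM in C lungs, a difference of 0.04 ± 0.33 (log2, SE). These groups overlapped. In the order of the 8 group means, 5 of 7 neighbouring pairs overlapped. C above DE+PFD+RIC and DE+PFD+RIC above RIC+DE did not.

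**Figure D1:**
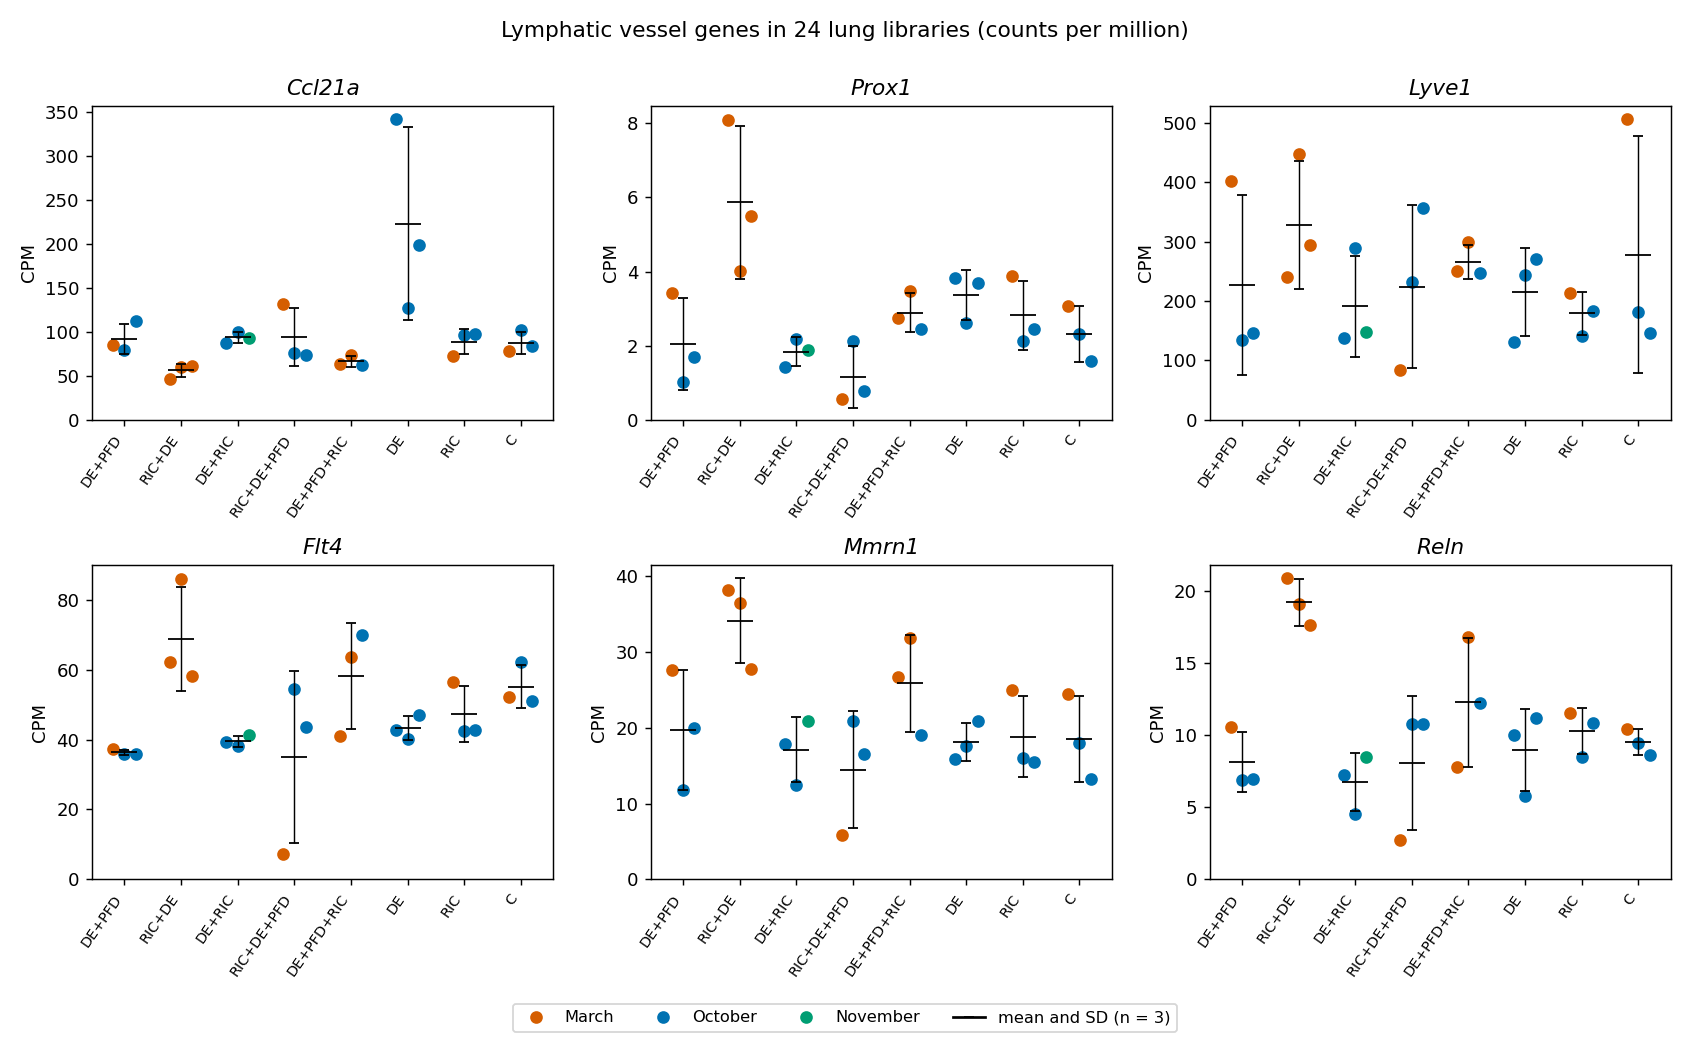
CPM (y axis, from 0) of the 6 genes in each library, by group (x axis), coloured by the month of the batch date. Bars give mean and SD (n = 3). Ccl21a is highest in DE, at 127.2 to 341.9 CPM, while Prox1, Flt4, Mmrn1 and Reln have their highest group means in RIC+DE.

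Prox1, the transcription factor of lymphatic identity, was scarce, with 4 to 109 reads a library. It stood at 8.08, 4.02 and 5.50 CPM in RIC+DE lungs, against 3.83, 2.60 and 3.68 CPM in DE lungs. The RIC+DE libraries lay above all DE libraries. They also lay above the other 6 March libraries, which ran from 0.57 to 3.88 CPM. Wholly above DE lay 29.1% of all genes, and the share above the other March libraries was not counted. With the batch dates in the fit the difference was 0.10 ± 0.46 (log2, SE), and with no batch term it was 0.64.

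Prox1 had 3.83, 2.60 and 3.68 CPM in DE lungs, against 3.07, 2.31 and 1.58 CPM in C lungs. These overlapped, with a difference of 0.80 ± 0.41 (log2, SE). DE+RIC lungs had 1.42, 2.19 and 1.89 CPM, all below DE, and the fitted difference was -0.91 ± 0.46. RIC+DE+PFD lungs had 0.57, 2.12 and 0.76 CPM, all below DE, and the fitted difference was -1.47 ± 0.42. The first of these libraries is the one that stood apart, and without it the difference was -1.15. DE+PFD lungs had 3.41, 1.02 and 1.69 CPM, DE+PFD+RIC lungs 2.75, 3.49 and 2.45 CPM, and RIC lungs 3.88, 2.13 and 2.46 CPM. Of the 7 neighbouring pairs of group means, 6 overlapped, and RIC+DE above DE did not.

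Flt4, the receptor of VEGF-C and VEGF-D, stood at 42.9, 40.2 and 47.0 CPM in DE lungs, against 52.1, 62.3 and 51.0 CPM in C lungs. All DE libraries were below all C libraries, as for 10.2% of the genes. The fitted difference was -0.40 ± 0.33 (log2, SE). DE+PFD lungs had 37.3, 35.8 and 36.0 CPM, all below DE, as for 7.72% of the genes. The fitted difference was -0.05 ± 0.33.

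RIC+DE lungs had 62.3, 86.0 and 58.2 CPM of Flt4, all above DE. The fitted difference was 0.85 ± 0.38 (log2, SE), and without RIC+DE 2 it was 0.62. The other March libraries reached 63.6 CPM, so RIC+DE did not stand clear of its own batch. DE+PFD+RIC lungs had 40.9, 63.6 and 70.0 CPM. RIC+DE+PFD lungs had 7.36, 54.4 and 43.5 CPM, and the low value is that of the library that stood apart. DE+RIC lungs had 39.2, 38.1 and 41.2 CPM, and RIC lungs 56.4, 42.5 and 42.8 CPM.

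Reln, a secreted glycoprotein, was higher in the 3 RIC+DE libraries than in any of the other 21. RIC+DE lungs had 20.9, 19.1 and 17.7 CPM, against 10.0, 5.78 and 11.2 CPM in DE lungs. The other 21 libraries lay at 16.8 CPM or lower. How many of all genes share that pattern was not counted. Against DE alone, 29.1% of genes lay wholly above in RIC+DE. The fitted difference was 0.94 ± 0.39 (log2, SE). DE+PFD lungs had 10.6, 6.91 and 6.99 CPM, DE+RIC lungs 7.28, 4.52 and 8.49 CPM, and RIC+DE+PFD lungs 2.7, 10.8 and 10.8 CPM. DE+PFD+RIC lungs had 7.83, 16.8 and 12.3 CPM. RIC lungs had 11.6, 8.52 and 10.8 CPM, against 10.5, 9.50 and 8.67 CPM in C lungs. Of the 7 neighbouring pairs of means, RIC+DE above DE+PFD+RIC was the one that did not overlap.

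Mmrn1, which encodes multimerin 1, had 38.2, 36.4 and 27.7 CPM in RIC+DE lungs, against 15.9, 17.6 and 20.9 CPM in DE lungs. All RIC+DE libraries were above all DE libraries, but the other March libraries reached 31.8 CPM. The fitted difference was 0.36 ± 0.36 (log2, SE), and without both DE 1 and RIC+DE+PFD 1 it was -0.02. The remaining groups had means of 14.5 to 25.8 CPM, and every neighbouring pair of group means overlapped.

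Lyve1, the hyaluronan receptor, ranged widely within groups. C lungs had 507.2, 181.8 and 145.3 CPM, where the first is the highest of all 24 libraries and comes from March. DE lungs had 130.8, 243.1 and 270.7 CPM, and the difference DE minus C was 0.03 ± 0.48 (log2, SE). RIC+DE lungs had 240.2, 448.1 and 295.1 CPM, with a difference from DE of -0.17 ± 0.56 after the batch dates. Group means ran from 179.6 CPM in RIC to 327.8 CPM in RIC+DE, and all 7 neighbouring pairs overlapped. A list of macrophage markers that can accompany Lyve1 held Mrc1, Folr2, Cd163, Timd4, F13a1 and Cbr2. It summed to 4738, 8678 and 5513 CPM in those DE libraries, carried mostly by Cbr2, whose median was 5339 CPM. The others had medians of 2.02 CPM (Timd4) to 43.3 CPM (Mrc1), so the sum follows Cbr2 and does not measure macrophages. It was highest, at 11920 CPM, in RIC+DE+PFD 1, as was the sum of the lung markers (160900 CPM).

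Read across the set, 4 of 6 members lay wholly above DE in RIC+DE lungs (Prox1, Flt4, Mmrn1 and Reln), and 1 of 6 wholly below (Ccl21a). For all genes the shares were 29.1% above and 14.3% below. In the other contrasts with DE, Ccl21a and Prox1 lay wholly below in DE+RIC (5.07% of all genes did), Prox1 in RIC+DE+PFD (11.5%) and Ccl21a in DE+PFD+RIC (11.4%). Ccl21a and Flt4 did so in DE+PFD (7.72%). No member lay wholly above DE in DE+PFD (4.01% of genes did), DE+RIC (7.56%), RIC+DE+PFD (1.55%) or DE+PFD+RIC (16.1%). No member separated RIC from C, where 1.89% of genes lay wholly above and 2.61% wholly below.

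Promoter sequences are shown for Ccl21a, which was lowest in RIC+DE, and for Flt4 and Mmrn1, whose CPM was higher in every RIC+DE library than in any DE library. They are RefSeq windows of 300 bases on GRCm38.p6, 250 before to 50 after the start, at chr4:42773942-42774241 (minus strand), chr11:49609429-49609728 (plus strand) and chr6:60944067-60944366 (plus strand). Capitals mark a match to AACAAT.

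Ccl21a: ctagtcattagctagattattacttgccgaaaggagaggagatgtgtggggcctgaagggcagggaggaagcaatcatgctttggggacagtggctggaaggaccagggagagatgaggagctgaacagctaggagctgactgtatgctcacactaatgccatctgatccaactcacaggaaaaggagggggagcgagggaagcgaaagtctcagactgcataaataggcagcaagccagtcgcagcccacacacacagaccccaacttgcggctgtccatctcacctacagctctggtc

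Flt4: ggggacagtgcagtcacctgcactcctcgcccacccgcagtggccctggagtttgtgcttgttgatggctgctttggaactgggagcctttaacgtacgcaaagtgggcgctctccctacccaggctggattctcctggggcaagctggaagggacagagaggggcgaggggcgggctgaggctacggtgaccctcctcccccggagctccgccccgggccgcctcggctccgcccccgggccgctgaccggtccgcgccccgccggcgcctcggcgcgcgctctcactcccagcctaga

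Mmrn1: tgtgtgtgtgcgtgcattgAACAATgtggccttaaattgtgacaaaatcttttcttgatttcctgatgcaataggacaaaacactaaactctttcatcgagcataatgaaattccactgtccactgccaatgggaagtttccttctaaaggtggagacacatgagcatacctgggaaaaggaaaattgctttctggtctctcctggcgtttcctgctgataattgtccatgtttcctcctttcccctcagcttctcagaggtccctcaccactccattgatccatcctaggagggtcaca

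Both strands of 5 promoters, these and those of Prox1 and Reln, were searched for 4 short motifs. AACAAT, which SOX factors bind, was found once, in Mmrn1, and in 10.9% of 27025 promoters. A binding site of nuclear receptors such as NR2F2, spelled AGGTCA, was found in none of the 5 and in 16.0% of all promoters. AGATAA, one spelling of the site that GATA2 and related factors bind, was likewise found in none of the 5, and in 11.4% of all promoters. Other spellings of these sites were not searched. GGAAG, an ETS core, was found in all 5, as in 71.1% of all promoters, and overlapped no AACAAT match. The letters describe these windows and say nothing on whether a factor binds there. GC content was 53.7% in Ccl21a, 70.3% in Flt4 and 44.3% in Mmrn1.

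edgeR's quasi-likelihood test called 0 of 17490 genes in each of the 7 comparisons (0%), and so none of the members. Unadjusted p was under 0.05 for 582 genes in DE minus C, 210 in RIC minus C, 497 in DE+PFD minus DE and 3024 in RIC+DE minus DE. It was under 0.05 for 565 in DE+RIC minus DE, 1665 in RIC+DE+PFD minus DE and 1614 in DE+PFD+RIC minus DE. DESeq2 was run on the 41345 genes with any count. It called 14, 1, 18, 80, 18, 71 and 16 genes in that order. The members' median difference (log2) was 0.11 in DE minus C, with 4 of 6 above 0, and 0.03 in RIC minus C, with 4 of 6. Against DE it was -0.12 in DE+PFD (1 of 6 above 0), 0.23 in RIC+DE (4 of 6), -0.42 in DE+RIC (0 of 6), -0.20 in RIC+DE+PFD (1 of 6) and 0.01 in DE+PFD+RIC (3 of 6). The median over all genes lay between -0.01 and 0.04 in the 7 comparisons.

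**Figure D2:**
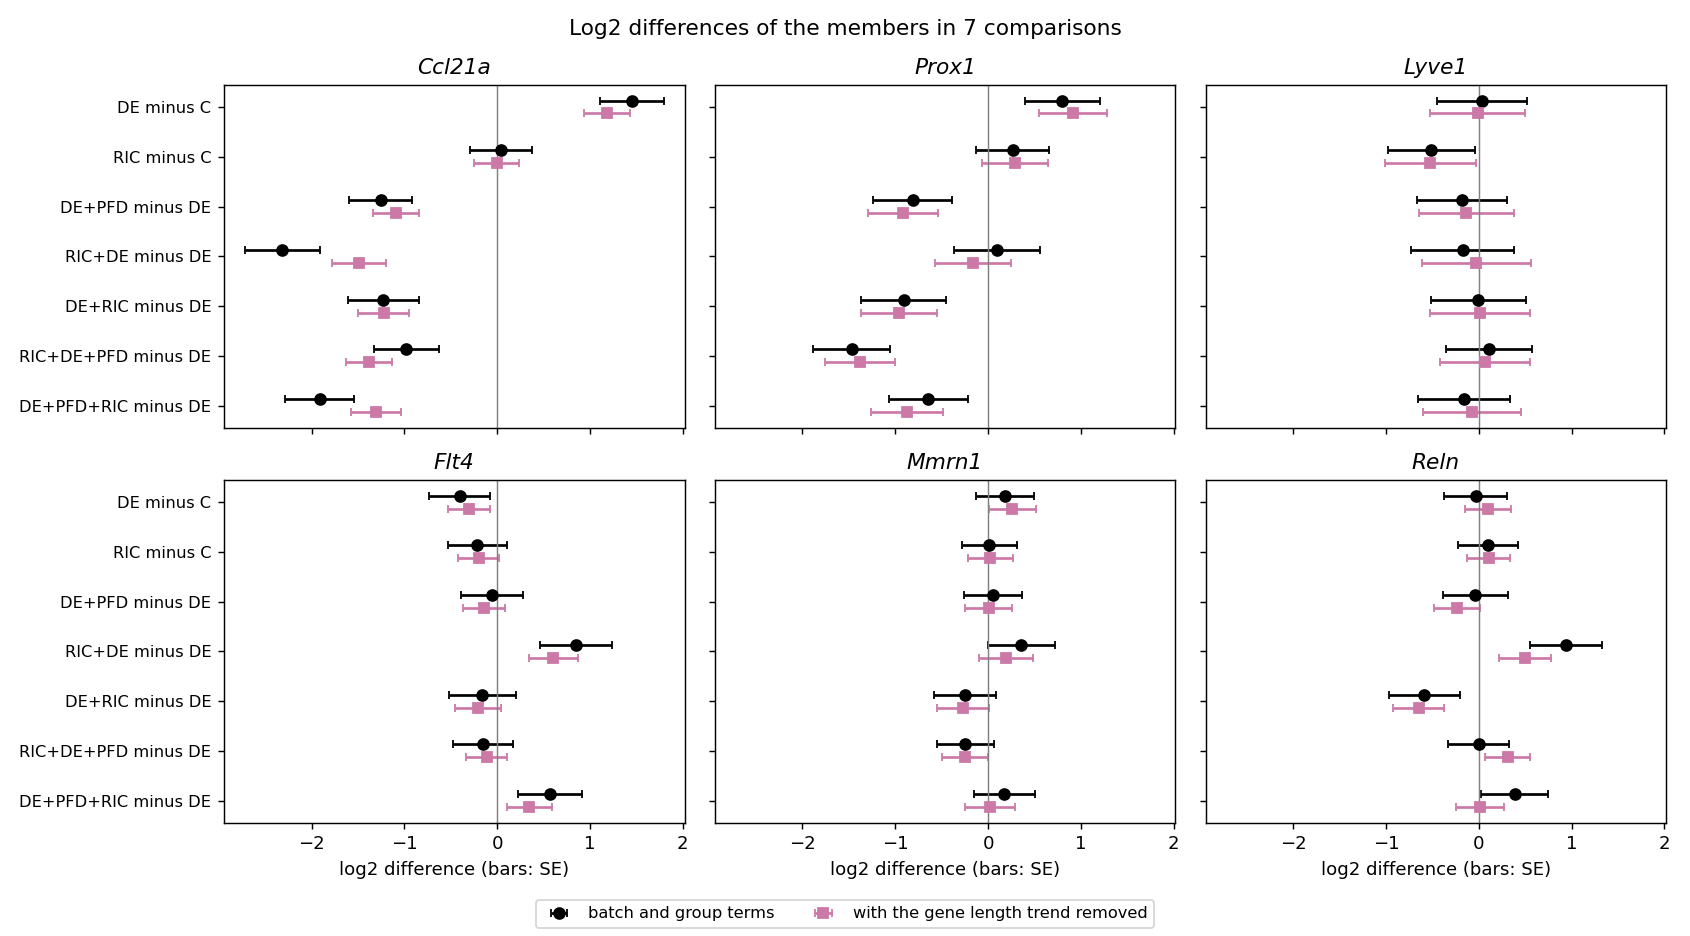
Log2 differences (x axis; bars are SE) of each gene in 7 comparisons (y axis), from the fit with batch and group terms (black circles) and after removing each library's trend with gene length (pink squares). Ccl21a in RIC+DE minus DE is at -2.32 and -1.49 in these fits, and Reln at 0.94 and 0.49.

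The members moved with the libraries' relation to gene length. Over the 24 libraries, Spearman's rho between a gene's CPM and the library's rho with exon length was -0.80 for Ccl21a, whose exons are the shortest, and 0.59 to 0.77 for the other 5. Within the 9 March libraries it was -0.63 for Ccl21a and 0.40 to 0.97 for the others, and within the 14 October libraries -0.55 for Ccl21a and -0.06 to 0.35 for the others. When each library's trend with exon length was removed, RIC+DE minus DE became -1.49 ± 0.29 for Ccl21a (log2, SE), 0.49 ± 0.28 for Reln, 0.60 ± 0.26 for Flt4, 0.19 ± 0.29 for Mmrn1 and -0.16 ± 0.41 for Prox1. DE minus C for Ccl21a was then 1.18 ± 0.25. RIC+DE+PFD 1, with the most negative relation to length, was the lowest of the 24 libraries for Prox1, Lyve1, Flt4, Mmrn1 and Reln. The part of RNA quality in this was not tested.

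**Figure D3:**
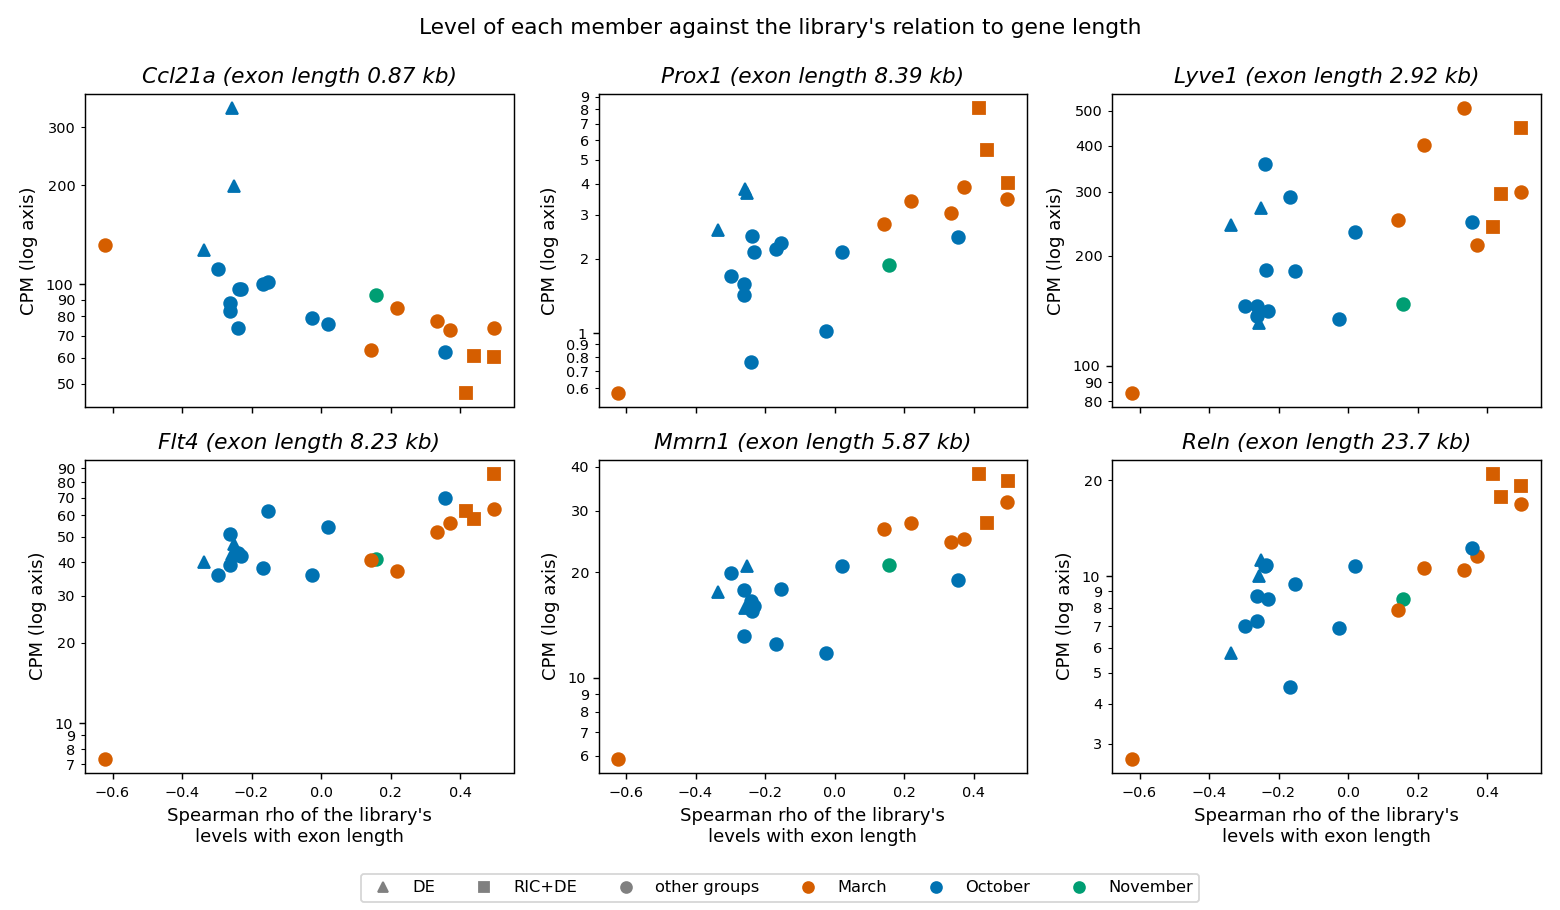
Level of each gene (y axis, CPM on a log axis) against Spearman's rho between that library's deviations and exon length over 14359 genes (x axis), for 24 libraries. Triangles are DE, squares RIC+DE and circles other groups. RIC+DE libraries sit at 0.42 to 0.50 on the x axis and DE libraries at -0.34 to -0.25.

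Over 24 libraries Spearman's rho between Ccl21a and each of the others lay from -0.65 (Flt4) to -0.33 (Prox1). Among the other 5 it lay from 0.42 (Lyve1 with Flt4) to 0.73 (Flt4 with Reln). Within the 14 October libraries Ccl21a and Prox1 had a rho of 0.62, and within the 9 March libraries -0.78. Ccl21a and Lyve1 were at 0.20 in March, and Ccl21a and Mmrn1 at 0.08 in October. Among the other 5, rho in October lay from 0.10 to 0.38 apart from Flt4 with Reln, at 0.67, and in March from 0.05 to 0.93. These are descriptions of libraries that share batches and length trends.

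**Figure D4:**
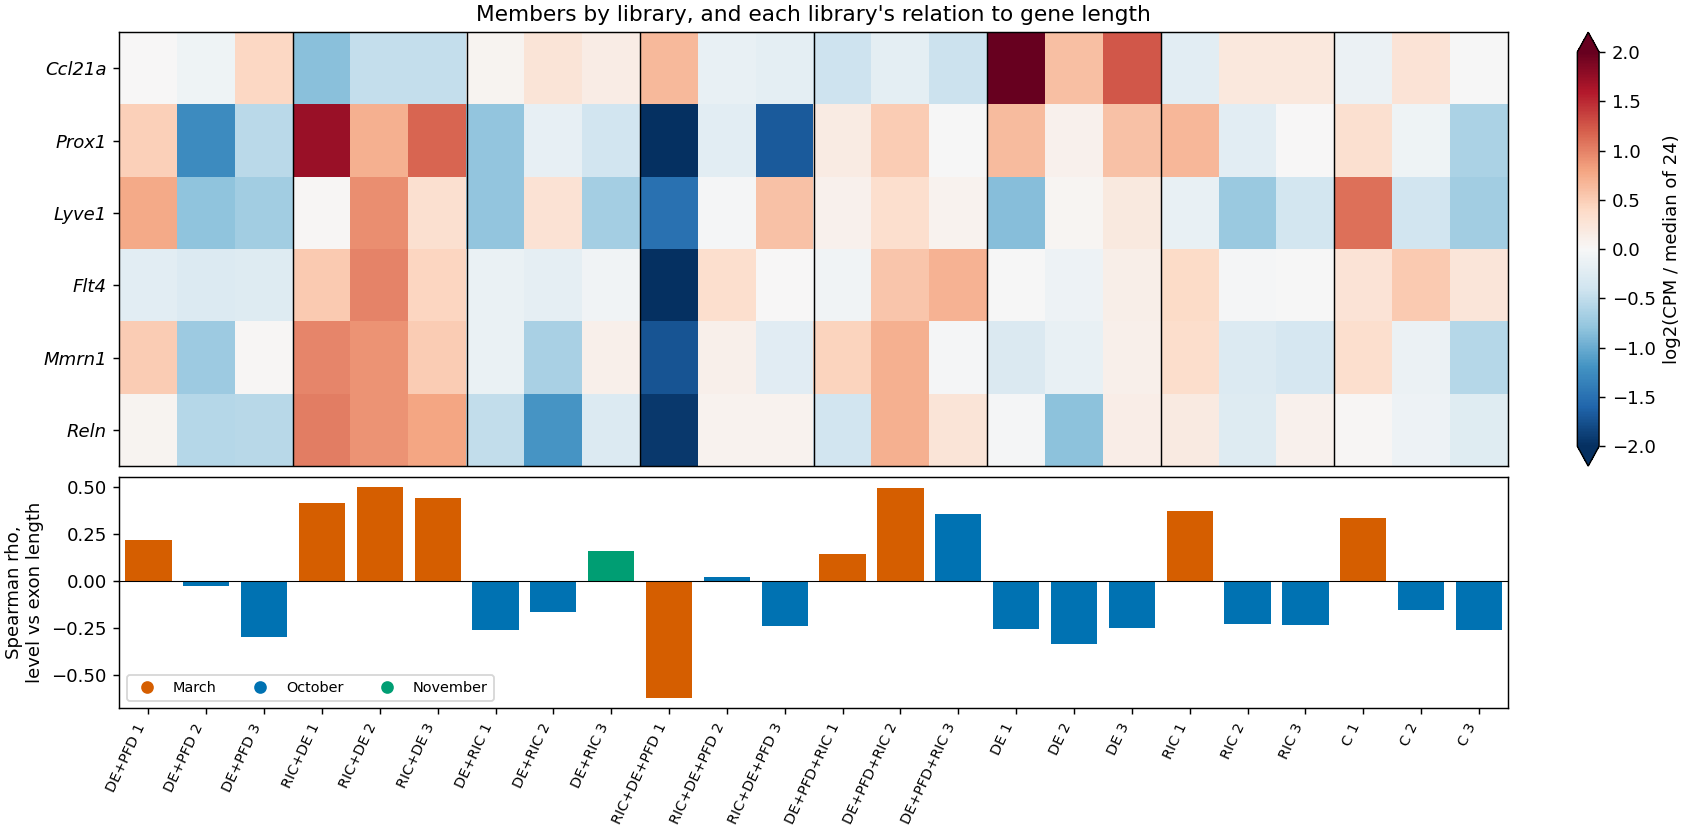
Log2 ratio of each library's CPM to the gene's median over 24 libraries (top, colour scale from -2 to 2) beside each library's rho with exon length (bottom, bars coloured by month). The RIC+DE libraries are low in Ccl21a and high in Prox1, Mmrn1 and Reln, and RIC+DE+PFD 1 is low in the last 5 genes.

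The genes whose level followed the mean of the 6 members most closely, out of 13923 compared, were led by Itih5 (rho 0.91 over 24 libraries, 0.82 in March and 0.83 in October), a hyaluronan-associated protein. Acsl1 (0.85), an enzyme of fatty acid activation, and Adamtsl3 (0.85) came next. Exons of Itih5, Acsl1 and Adamtsl3 measured 7900, 10483 and 7744 bases. The mean takes in Ccl21a, whose rho with each other member was negative over 24 libraries. The genes nearest to Ccl21a were Cstb (0.93), Psmb2 (0.92) and Cfl1 (0.92), with exon lengths of 603, 1204 and 2844 bases. Those nearest to Reln were Wdr59 (0.94), Dnmbp (0.89) and Nos3 (0.86), the endothelial nitric oxide synthase. Those nearest to Mmrn1 were Golga3, Crybg3 and Sptbn1 (0.93 to 0.94), with exons of 12671, 12711 and 17492 bases.

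Other lymphatic genes came from lists of 60 genes, of which 59 had an identifier and 56 passed the filter. edgeR with the group and batch terms called 0 of 56 in each comparison, and calls under other settings are given in the last section. Its unadjusted p was under 0.05 for 6 in DE minus C, 0 in RIC minus C, 4 in DE+PFD minus DE and 12 in RIC+DE minus DE. The counts were 3 in DE+RIC minus DE, 6 in RIC+DE+PFD minus DE and 11 in DE+PFD+RIC minus DE. Over all 17490 genes they were 582, 210, 497, 3024, 565, 1665 and 1614 in the same order. Growth signalling genes (VEGF-C, VEGF-D, their processing factors Ccbe1, Adamts3 and Adamts14, and Angpt and Tie genes) had a median of -0.24 (log2) in DE minus C, with 1 of 16 above 0, and of 0.49 in RIC+DE minus DE, with 12 of 16 above 0. Genes of lymphatic identity and vessel structure had medians of -0.27 and 0.25. Genes of traffic and partners, among them Ccr7 and the decoy receptors Ackr2 and Ackr4, had 0.14 and -0.04. The median over all genes was 0.00 in both, with 49.9% of genes above 0 in DE minus C and 50.3% in RIC+DE minus DE. DE and RIC+DE libraries differ in their relation to gene length, and these medians come from the fit that keeps that trend.

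Both main ligands of VEGFR3 were measured. Vegfc, the main lymphatic growth factor, was at -0.12 in DE minus C and at -0.33 in RIC+DE minus DE (log2). Vegfd was at -0.13 and 0.49. Adamts14, a protease that can activate VEGF-C, had 8.53, 8.36 and 5.50 CPM in RIC+DE lungs, against 4.95, 3.04 and 3.33 CPM in DE lungs, a difference of 1.63 ± 0.46 with an edgeR adjusted p of 0.274.

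Ccl19, the other ligand of CCR7, and Stab2, a scavenger receptor of sinus endothelium, were high in DE 1 and DE 3 as Ccl21a was. Ccl19 had 25.0, 1.16 and 13.2 CPM in DE lungs, against 0.25, 1.67 and 0.90 CPM in C lungs, a difference of 3.86 ± 0.83 with an edgeR adjusted p of 0.445. Stab2 had 24.9, 2.75 and 9.30 CPM in DE lungs, against 1.13, 2.95 and 2.25 CPM in C lungs, a difference of 2.49 ± 0.51 with an edgeR adjusted p of 0.331. In both genes DE 2 lay within the range of C, while for Ccl21a it lay above C. Ccr7 itself had 62.0, 34.0 and 33.7 CPM in DE lungs, against 18.3, 43.0 and 44.4 CPM in C lungs.

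**Figure D5:**
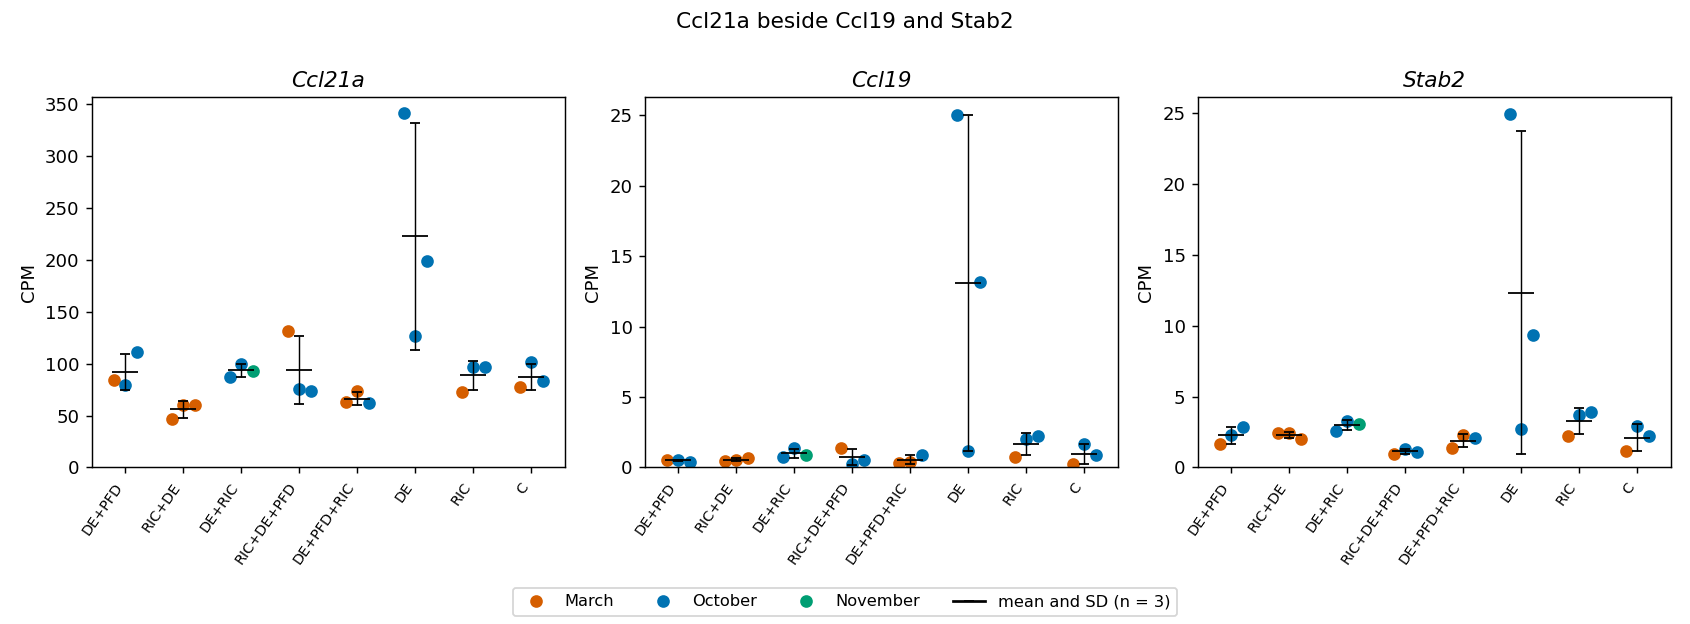
CPM (y axis, from 0) of Ccl21a, Ccl19 and Stab2 by library and group (x axis), coloured by month, with mean and SD (n = 3). DE 1 and DE 3 are high in all 3 genes, and DE 2 is high for Ccl21a alone.

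Markers of lymphoid tissue stroma and macrophages moved with the DE libraries. Their 8 genes summed to 315.1, 41.9 and 141.9 CPM in DE 1, DE 2 and DE 3, against 23.5 to 66.9 CPM in the other 21 libraries. Glycam1, a ligand of high endothelial venules, had 40.3, 0.29 and 16.8 CPM in DE, and was at 0 in 15 of 24 libraries. Cd209b, a marker of lymphoid sinus macrophages, had 82.3, 1.30 and 30.5 CPM. The 6 of 8 markers that could be tested all had a difference above 0 in DE minus C, with a median of 1.75 (log2), and 0 were called. In DE 2, where this sum was within the range of the other groups, Ccl21a was 127.2 CPM and rho with exon length -0.34. In RIC+DE+PFD 1 the sum was 23.9 CPM, Ccl21a 131.6 CPM and rho -0.62. The part of these markers in the Ccl21a result was not tested.

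T cell markers summed to 264.4, 98.1 and 131.6 CPM in DE, against 47.6 to 124.1 CPM in the other 21 libraries. All 6 were above 0 in DE minus C, with a median of 0.77 (log2). They were below 0 in each of the 5 treated groups minus DE, with medians from -1.17 (RIC+DE) to -0.77 (RIC+DE+PFD). B cell markers summed to 600.2, 263.7 and 282.3 CPM in DE, against 43.7 to 474.7 CPM elsewhere. All 5 were above 0 in DE minus C (median 0.36). They were below 0 in each of the 5 treated groups minus DE, with medians from -1.02 (DE+PFD) to -0.78 (RIC+DE+PFD), and at -0.84 in RIC+DE. Adipocyte markers summed to 2256, 249.4 and 578.6 CPM in DE, against 105.1 to 1615 CPM elsewhere, and all 9 were above 0 in DE minus C (median 2.52).

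Lung marker sums in RIC+DE lungs lay apart from those in DE lungs, while both muscle sums overlapped between these groups. All 7 lung markers were below 0 in RIC+DE minus DE (median -0.86, log2), and they summed to 32480, 48550 and 53640 CPM in RIC+DE, against 62430, 96930 and 75750 CPM in DE. All 8 cardiac muscle markers were above 0 (median 0.89), and they summed to 4862, 1460 and 2143 CPM in RIC+DE, against 1824, 1021 and 1152 CPM in DE. Skeletal muscle markers summed to 2268, 28.6 and 1147 CPM in RIC+DE, against at most 48.8 CPM outside it, and all 5 that could be tested were above 0 (median 4.75). None of these markers was called. Prox1, at 8.08, 4.02 and 5.50 CPM in RIC+DE, had the same order of libraries as the cardiac and skeletal muscle sums. The part of muscle in the Prox1 values was not tested.

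Blood vessel endothelium markers, 12 genes that include Pecam1 and Cdh5, summed to 3220 to 4412 CPM in RIC+DE and 3572 to 4391 CPM in DE, and the lowest sum of all was 2387 CPM in RIC+DE+PFD 1. Mesothelium markers summed to 155.8 to 239.2 CPM in RIC+DE and 245.2 to 256.8 CPM in DE, and platelet and megakaryocyte markers to 33.3 to 82.4 CPM in RIC+DE and 78.9 to 97.8 CPM in DE. Neuroendocrine markers summed to 13.7 to 19.95 CPM in RIC+DE and 13.5 to 14.6 CPM in DE. The part of these lists in the members' differences was not tested.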

How the data were processed

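The authors deposited read counts per gene as whole numbers, made by the authors with STAR 2.7.11b on GRCm39 and featureCounts after FastQC 0.12.1 and fastp 0.23.4, per the submitters' processing notes, which also name R 4.4.1 and DESeq2. RNA came from lung tissue by TRIzol, and poly(A) RNA was selected, per the labels' protocols. For the annotation release, the strand setting and multi-mapping reads, nothing is stated in the sources used here.

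Counts were divided by library totals (CPM), with total counts of 12224106 to 16925635 in March, 3906807 to 11298160 in October and 18494156 in November. Low counts, such as those of Prox1, carry more counting error. Symbols and exon lengths came from GENCODE M21 by gene identifier (51486 of 78275 matched). Tests used edgeR 4.0.16 in R 4.3.3 on all 24 libraries, with filterByExpr, TMM scaling, terms for group and batch date, and a Benjamini-Hochberg adjusted p under 0.05, and were tested on simulated data. Differences are log2 values with SE. The 7 comparisons set DE and RIC against C and each of the 5 treated groups against DE. DESeq2 1.42.0 and other settings were alternatives, of which the fits without both libraries that stood apart, with October alone and with the length trend removed were chosen after seeing the data. The members and the lists of lymphatic and marker genes were chosen with earlier results of these data known. Of the other lymphatic genes, those called were to be named, or otherwise the 2 with the smallest p in a comparison. A few more, such as Vegfc, Vegfd and Ccr7, were named for their role after their values were seen. Genes alike in pattern were ranked by Spearman's rho of TMM-scaled log2 CPM (prior count 2). Gp1bb, a platelet marker, had no counts.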

Additional observations from a re-analysis of the deposited data

Results flagged for a closer look

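Differences in Ccl21a between groups with and without pirfenidone ran in opposite directions with and without preconditioning. The values here are differences between group means of log2 CPM after TMM scaling, with a prior count of 2 and no batch term. The difference was 1.10 for RIC+DE+PFD minus RIC+DE and -1.11 for DE+PFD minus DE, a gap of 2.20. Against DE+PFD+RIC minus DE+RIC, at -0.52, the gap was 1.62. RIC+DE is all from March, while RIC+DE+PFD has 1 library from March and 2 from October. Their rho with exon length ran from 0.42 to 0.50 in RIC+DE and from -0.62 to 0.02 in RIC+DE+PFD. Over 24 libraries Ccl21a CPM had a rho of -0.80 with that measure. Batch, length trend and treatment were not separated in these differences. Prox1 went the other way, at 0.59 for DE+PFD+RIC minus DE+RIC and -1.96 for RIC+DE+PFD minus RIC+DE, a gap of 2.54. For conditioning, Prox1 was at 0.59 for RIC+DE minus DE and -0.83 for DE+RIC minus DE, a gap of 1.42. RIC+DE is all from March and DE all from October, and with the batch dates in the fit Prox1 was at 0.10 ± 0.46 (SE) for RIC+DE minus DE, with the other sign in 4 of 15 alternatives. The pairs were picked by a rule: the libraries of one contrast moved one way without overlap and those of the other the opposite way. The lack of overlap is thus no result, and the share of all genes that meet the rule is not given here. None of these differences was tested. RIC+DE+PFD 1, which enters 3 of the 4 gaps, is the library that stood apart.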

How the results depend on the processing

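With 0 genes called in each of the 7 comparisons, alternatives could move the counts only upward. In the order DE minus C, RIC minus C, DE+PFD, RIC+DE, DE+RIC, RIC+DE+PFD and DE+PFD+RIC minus DE, no filter on low counts gave 199, 63, 180, 1129, 229, 347 and 306 calls, and DESeq2 gave 14, 1, 18, 80, 18, 71 and 16. Both of these took in 41345 genes, against 17490 with the filter. With no batch term, RIC+DE gave 102, DE+RIC 3, RIC+DE+PFD 9 and DE+PFD+RIC 8. With the November library placed in October, DE+RIC gave 2. October libraries alone gave 1 for DE+RIC, 41 for RIC+DE+PFD and 1 for DE+PFD+RIC. Leaving out each library in turn gave 0 to 16 for DE minus C, 0 for RIC minus C, 0 to 13 for DE+PFD, 0 to 54 for RIC+DE, 0 to 14 for DE+RIC, 0 to 36 for RIC+DE+PFD and 0 to 19 for DE+PFD+RIC. Without DE 2 the counts were 16, 13, 18, 14, 36 and 19 in the 6 comparisons that use it, without RIC+DE 2 RIC+DE gave 54, and without RIC+DE+PFD 1 RIC+DE+PFD gave 7. The causes were not tested.

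The replicate numbers did not pair the libraries: correlations of same-numbered deviations ran from -0.30 to 0.41, with none of the comparisons over 0.1 in every pair. The replicate block in place of the batch term gave 30 calls for RIC+DE and 1 for DE+RIC, and the replicate block with the batch term gave 16 for RIC+DE.

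Ccl21a kept its sign in DE minus C (0.92 to 1.72) and in RIC+DE minus DE (-2.59 to -1.49) under every alternative run, and was called in RIC+DE minus DE by DESeq2, with no filter, with no batch term, under the block in place of the batch term, without DE 2 and without RIC+DE 2. It was also called in DE+PFD+RIC minus DE by DESeq2, with no batch term and without DE 2, and with no filter in each comparison except RIC minus C. No other member was called under any alternative. In the order of comparisons above, no filter called 2, 0, 2, 4, 2, 3 and 2 of the other lymphatic genes. DESeq2 called 2, 0, 1, 1, 0, 2 and 1 of them. Without DE 2, each comparison that uses it called 2. No batch term gave 2 for RIC+DE, 1 for RIC+DE+PFD and 2 for DE+PFD+RIC. The block in place of the batch term gave 2 for RIC+DE. Calls over all genes in these fits are given above. In RIC+DE minus DE, Prox1 ran from -0.17 to 0.64, Lyve1 from -0.81 to 0.47 and Mmrn1 from -0.02 (without DE 1 and RIC+DE+PFD 1) to 0.77, so none of these directions held throughout. Low counts limit Prox1, at 4 to 109 reads a library.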
